A study of Mus musculus with 4 samples.

Results

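Solute carrier genes encode membrane transporters that move nutrients, metals, ions and metabolites across the cell surface and across the membranes of organelles. The genes described here are the rows of the single-cell expression table whose symbol begins with Slc and a family number, with 1 further symbol left out by the rule, and with a value above 0 in at least 50 of 5080 cells. They number 153 of 13265 genes. They were chosen by 1 measured value, the number of cells in which the gene was above 0. The last genes inside this limit were *Slc43a1* with 53 cells, *Slc2a6* with 52 and *Slc37a2* with 51, and the first outside it were *Slc12a8* and *Slc6a8* with 45 cells each and *Slc25a15* with 42. A further 69 symbols of the family fell under the limit, 21 of them at 0 in every cell.

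The cells were YFP+CD4+ T cells that had been sorted from small intestines of C57BL/6 mice aged 7 to 8 months and carrying *Il17a-cre* and a YFP reporter in the *Rosa26* locus, so that YFP marked cells that had expressed *Il17a* at some time, whatever they expressed when sorted. TGFβR-KO mice carried floxed alleles of *Tgfbr2*, TGFβR-CA mice carried a constitutively active *Tgfbr1* behind a floxed stop cassette, and TGFβR-WT littermates carried neither. Each of the 4 samples (1 TGFβR-KO, 1 TGFβR-CA and 2 TGFβR-WT) was a pool of mice, and TGFβR-KO and TGFβR-CA were sequenced in different batches, each with TGFβR-WT cells, so that genotype and batch cannot be told apart where these 2 conditions are set side by side. There were 2975 TGFβR-KO cells, 1098 TGFβR-CA cells and 1007 TGFβR-WT cells. The names of the TGFβR-WT cells carry 1 of 2 suffixes, found on 709 and 298 cells, and neither suffix could be tied to a sample. These cells are called the larger and the smaller TGFβR-WT set.

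Activated T cells take up glucose through facilitative carriers of the Slc2a family and export lactate through monocarboxylate carriers of the Slc16a family, with which basigin and embigin associate. Large neutral amino acids enter through heterodimers of the heavy chain CD98, encoded by *Slc3a2*, and a light chain such as *Slc7a5*, while sodium-coupled carriers such as *Slc1a5*, *Slc38a1* and *Slc38a2* bring in glutamine and other neutral amino acids. Most carriers of the Slc25a family lie in the inner mitochondrial membrane and exchange nucleotides, phosphate and metabolites with the cytosol. Zinc enters the cytosol through Slc39a carriers and leaves it through Slc30a carriers, and Slc35 carriers supply nucleotide sugars to the Golgi.

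Levels are corrected unique molecular identifiers (UMIs, 1 for each captured RNA molecule) per 10000 corrected UMIs over all cells of a group together, and were not divided by gene length because droplet libraries of this kind count molecules at 1 end. The median cell had between 3440 and 3984 corrected UMIs and between 1470 and 1675 detected genes in the 4 sets of cells, and SCTransform had already set the depth of cells to a common value. With 1 sample for each mutant condition and TGFβR-WT cells that could not be tied to samples, no test between conditions was possible and no p-value is given. A difference between conditions was called by size alone, as a level at least 1.5 times above or below that of each of the 2 TGFβR-WT sets. Genes with at least 200 corrected UMIs over all cells were compared, which left 99 of the 153 solute carrier genes and 7490 of all genes. A gene that passed this minimum through the cells in which it is high is more likely to differ, so counts of genes called over all cells or within a cluster are given with the share of all genes called in the same comparison.

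All 10 T cell markers examined were detected, with a summed level between 106 and 130 per 10000 in the 4 sets. Of 17 intestinal epithelial markers measured, 2 were at 0, and the list summed to between 0.279 and 0.379. The 1 epithelial marker with enough UMIs to compare, *Krt18*, was at 0.0479 in TGFβR-KO against 0.104 and 0.214 in the larger and smaller TGFβR-WT sets. Scarcer epithelial markers went both ways. *Reg3b* was at 0.0497 in TGFβR-KO and at 0 in the other sets, and *Tff3* at 0.0287 in TGFβR-KO against 0.0559 and 0.0742 in the TGFβR-WT sets. The 7 B and plasma cell markers summed to between 1.25 and 2.75. Of these, *Ighm* was at 0.566 in TGFβR-KO, 2.08 and 1.06 in the TGFβR-WT sets and 1.69 in TGFβR-CA, and within TGFβR-KO it was highest in the GC-TFH cluster at 2.62. *Jchain* was at 0.551, 0.291, 0.181 and 0.659 in the same order of sets, and *Ms4a1*, which encodes the B cell antigen CD20, was at most at 0.0239. Among the markers with enough UMIs to compare, *Ighm* and *Krt18* thus moved with the genes called lower in TGFβR-KO, and *Jchain* with those called higher. The part of these markers in the results was not tested. Of the γδ T cell markers 4 of 5 were at 0, and the CD8 genes summed to at most 0.0453.

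The repertoire of solute carrier genes was broad and low. Levels over all cells ran from 0.0286 to 4.42 per 10000, with a median of 0.154. Only 8 genes reached a level of 1, and 54 lay below 0.1. The 10 highest genes held 42.1% of the summed level of the family, and the 2 highest held 17.9%.

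These 2 were mitochondrial carriers. *Slc25a3*, the phosphate carrier (chr10:91116574-91124059), was at 4.59 in TGFβR-KO, 4.47 in the larger TGFβR-WT set, 4.29 in the smaller set and 3.98 in TGFβR-CA. *Slc25a5*, an ADP/ATP carrier (chrX:36795651-36798807), was at 3.82, 4.23, 4.32 and 3.71 in the same order. *Slc25a4*, another ADP/ATP carrier, was at 2.07, 1.73, 1.55 and 1.61. None of these 3 genes differed by 1.5 times between any of the mutant conditions and either TGFβR-WT set.

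Genes of neutral amino acid transport supplied 4 of the 10 highest genes. *Slc38a2* was at 2.13 in TGFβR-KO, 2.22 in the larger and 2.09 in the smaller TGFβR-WT set, and 2.89 in TGFβR-CA. *Slc38a1* was at 1.03, 1.30, 1.15 and 1.18, and *Slc1a5* at 1.01, 1.17, 1.03 and 1.09, in the same order. *Slc3a2* was at 1.02 in TGFβR-KO against 0.834 and 0.750 in the TGFβR-WT sets and 0.673 in TGFβR-CA. The other genes among the 10 highest were *Slc50a1*, a sugar transporter, the endosomal sodium/proton exchanger gene *Slc9a9*, and *Slc9a3r1*. *Slc9a3r1* encodes a scaffold protein of the membrane skeleton and is a solute carrier only by name, and it stood at 3.66 in the smaller TGFβR-WT set against 1.76 in the larger, so the gap between the 2 TGFβR-WT sets was wider than that between the larger set and either mutant condition.

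As a family the genes took up a slightly smaller part of the transcriptome in TGFβR-KO. Their summed level was 44.5 per 10000 in TGFβR-KO, 47.3 in TGFβR-CA, and 49.8 and 51.6 in the larger and smaller TGFβR-WT sets, and the median cell had 13, 14, 13 and 15 of them detected, in that order. Over the 99 genes compared, the median ratio of TGFβR-KO to the pooled TGFβR-WT cells was 0.865, close to the 0.888 of all genes compared. For TGFβR-CA it was 0.915 against 0.926. In TGFβR-KO 52 of the 99 genes lay below both TGFβR-WT sets, against 50.6% of all genes, and 17 lay above both, against 18.1%. The family thus moved with the bulk of genes, and the called genes were single members rather than the family.

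By role, the median ratio of TGFβR-KO to pooled TGFβR-WT was 1.005 over 23 mitochondrial carriers, 0.987 over 7 vitamin, lipid and organic ion transporters, 0.917 over 7 sugar and monocarboxylate transporters, and 0.886 over 16 nucleoside, nucleotide sugar and acetyl-CoA transporters. It was 0.826 over 13 amino acid and peptide transporters, 0.783 over 17 metal transporters and 0.753 over 12 ion and pH transporters. The remaining 4 genes carry the name of a transporter without being one, and the other roles were given by gene family. In TGFβR-CA the same medians lay between 0.794, for sugar and monocarboxylate transporters, and 0.977, for metal transporters.

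In TGFβR-KO 2 of the 99 genes were called higher than both TGFβR-WT sets, against 2.76% of all genes, and 9 were called lower, against 5.45%. The gene with the largest difference in either direction was *Slc2a3*, which encodes the high-affinity glucose transporter GLUT3 (chr6:122727809-122801640, minus strand). Its level was 0.455 in TGFβR-KO, 0.128 in the larger TGFβR-WT set, 0.115 in the smaller set and 0.0913 in TGFβR-CA. TGFβR-KO alone was high, at 3.56 times the larger and 3.94 times the smaller TGFβR-WT set. Of TGFβR-KO cells 14.7% had a UMI of the gene (95% confidence interval 13.4 to 16.0, counting error only), against 3.95% (2.64 to 5.66) and 4.36% (2.34 to 7.34) in the TGFβR-WT sets and 3.19% (2.23 to 4.41) in TGFβR-CA. The authors removed other cell types, so a background share in a cell type that lacks the gene could not be measured.

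The second gene called higher was *Slc25a24*, a calcium-regulated mitochondrial carrier of ATP-Mg and phosphate (chr3:109123149-109168457, plus strand). It was at 0.874 in TGFβR-KO, 0.555 and 0.536 in the larger and smaller TGFβR-WT sets and 0.538 in TGFβR-CA, and TGFβR-KO exceeded the nearer set 1.58 times. *Slc30a7*, a zinc transporter of the Golgi, lay just short of the call, at 0.189 in TGFβR-KO against 0.128 and 0.115, or 1.48 times the nearer set.

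**Figure D1:**
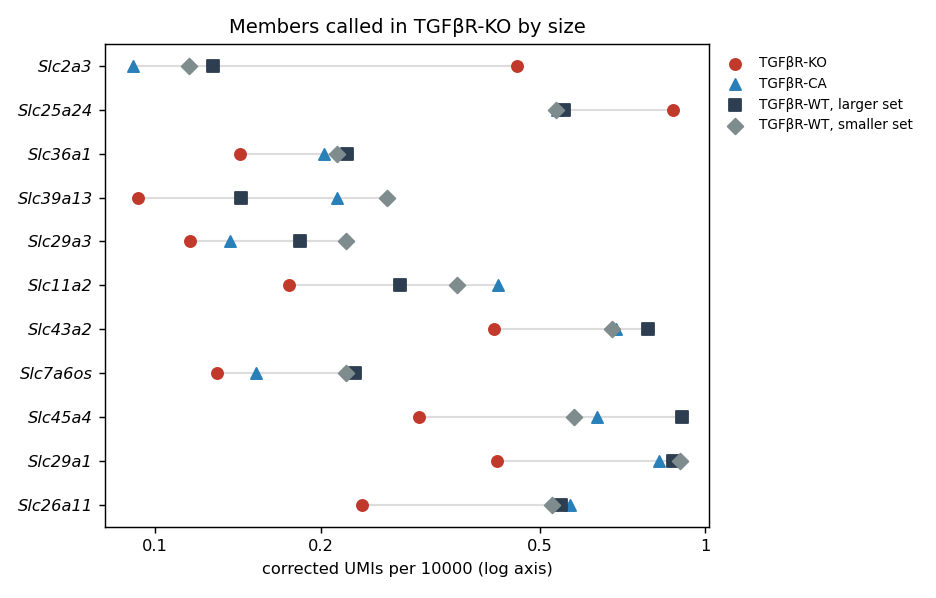
Levels of the 11 solute carrier genes called in TGFβR-KO, in corrected UMIs per 10000 on a log axis, with 1 point for each of the 4 sets of cells. For *Slc2a3* and *Slc25a24* the TGFβR-KO point lies to the right of all others, and for the 9 genes called lower it lies to the left of all others.

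The 9 genes called lower spread over 6 of the 8 roles. Those with the largest differences were carriers of anions, nucleosides and sugars. *Slc26a11*, a sulfate and chloride transporter (chr11:119355557-119381079), was at 0.238 in TGFβR-KO, 0.547 and 0.528 in the larger and smaller TGFβR-WT sets and 0.568 in TGFβR-CA, 0.451 times the nearer set. *Slc29a1*, the equilibrative nucleoside transporter of the cell surface (chr17:45585200-45599606), was at 0.419, 0.874, 0.898 and 0.824, 0.480 times the nearer set. *Slc45a4*, of a family of proton-coupled sugar transporters (chr15:73577424-73645762), was at 0.302, 0.906, 0.577 and 0.634, 0.524 times the nearer set. For these 3 genes, over all cells together, TGFβR-CA lay close to at least 1 of the TGFβR-WT sets and TGFβR-KO stood alone.

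Of the amino acid transporters 2 of 13 compared were called lower, where 5.45% of all genes were. *Slc43a2*, a carrier of large neutral amino acids, was at 0.413 in TGFβR-KO, 0.786 and 0.676 in the TGFβR-WT sets and 0.687 in TGFβR-CA. *Slc36a1*, a proton-coupled amino acid transporter of the lysosome, was at 0.143 against 0.223 and 0.214, at 0.667 times the nearer set, on the limit of the call. The anion transporter gene *Slc26a2* lay just outside the limit at 0.672. The large-neutral amino acid light chain *Slc7a5* was scarce, with 104 corrected UMIs in all cells, and was not compared. Its level was 0.0462 in TGFβR-KO, 0.0758 and 0.0907 in the TGFβR-WT sets and 0.0479 in TGFβR-CA.

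Among metal transporters 2 of 17 were called lower, against the same 5.45%. *Slc11a2*, the divalent metal transporter that carries ferrous iron, was at 0.175 in TGFβR-KO, 0.279 and 0.354 in the larger and smaller TGFβR-WT sets and 0.420 in TGFβR-CA. *Slc39a13*, a zinc transporter, was at 0.0932, 0.144, 0.264 and 0.214. The iron exporter *Slc40a1* was at 0 in all cells. The other genes called lower were *Slc29a3*, a nucleoside transporter of lysosomes (0.116 in TGFβR-KO against 0.184 and 0.223), and *Slc7a6os*, named for its place on the strand opposite *Slc7a6* (0.130 against 0.231 and 0.223). In the annotation *Slc11a2*, *Slc39a13* and *Slc43a2* overlap a gene on the opposite strand.

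**Figure D2:**
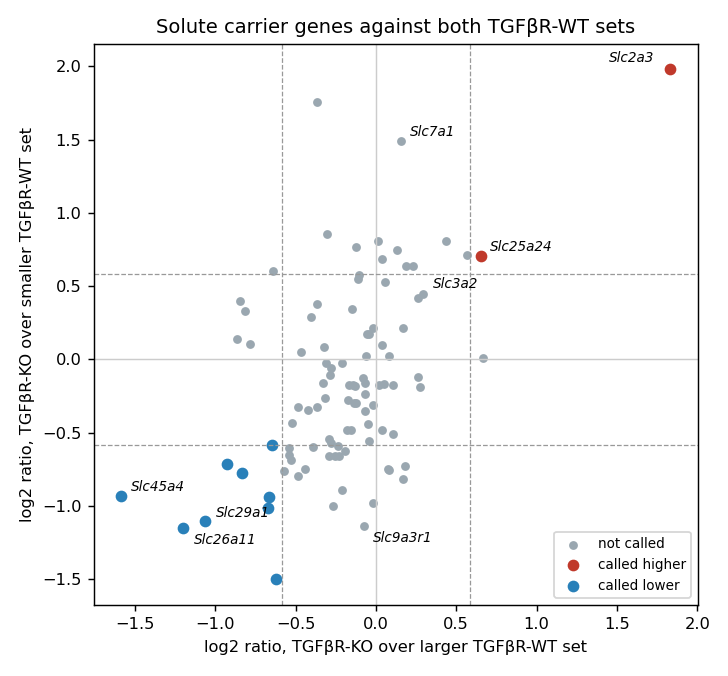
Each point is 1 of the 99 solute carrier genes compared, with the log2 ratio of its level in TGFβR-KO to the larger TGFβR-WT set on the horizontal axis and to the smaller set on the vertical axis. Dashed lines mark 1.5 times in each direction. Most points lie near or below 0 on both axes, *Slc2a3* stands apart at the upper right, and *Slc7a1* and *Slc9a3r1* differ from the smaller set only.

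Well-known transporters of activated T cells outside these calls were mostly close between conditions. *Slc6a6*, the taurine transporter, was at 0.547 in TGFβR-KO, 0.614 and 0.618 in the larger and smaller TGFβR-WT sets and 0.452 in TGFβR-CA. *Slc44a2*, a choline transporter of the plasma membrane and mitochondria, was at 0.455, 0.519, 0.701 and 0.529. *Slc35b1*, which carries nucleotides into the endoplasmic reticulum, was at 0.418, 0.395, 0.412 and 0.468. *Slc7a6* (between 0.113 and 0.124 in the 4 sets), *Slc15a4*, a peptide and histidine transporter of the lysosome (0.138 to 0.172), and the zinc importer *Slc39a1* (0.272 to 0.429) were not called either. The zinc exporter *Slc30a1* was at 0.0976 in TGFβR-KO, within the 0.168 and 0.0907 of the TGFβR-WT sets. The lactate exporter *Slc16a3* had 168 corrected UMIs in all cells, too few to compare, with levels of 0.0897 in TGFβR-KO, 0.0519 and 0.0659 in the TGFβR-WT sets and 0.1004 in TGFβR-CA.

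The 2 sets of TGFβR-WT cells were also unlike each other. Of the 99 genes 11 were at least 1.5 times higher in the smaller than in the larger set, against 10.2% of all genes, and 17 were at least 1.5 times lower, against 11.9%. A few genes followed the sets rather than the conditions, in numbers too small to read against the share of all genes. With TGFβR-CA and the smaller set both at least 1.5 times above TGFβR-KO and the larger set there were 0 of 99, against 1.30% of all genes. *Slc7a1* was at 0.347 in TGFβR-KO and 0.311 in the larger TGFβR-WT set, but 0.124 in the smaller set and 0.167 in TGFβR-CA. *Slc14a1*, a urea transporter, was at 0.139, 0.180, 0.0412 and 0.0913 in the same order. These were the 2 of 99 genes with TGFβR-KO and the larger set both at least 1.5 times above TGFβR-CA and the smaller set, against 2.40% of all genes. *Slc20a1*, a sodium-phosphate cotransporter, parted the sets the other way, at 0.507 in TGFβR-KO and 0.503 in the smaller set against 0.319 in the larger set and 0.228 in TGFβR-CA, and was the 1 gene of 99 that did so, against 0.494% of all genes. *Slc12a2*, the sodium-potassium-chloride cotransporter, was at 0.164 in the larger set and 0.144 in TGFβR-CA against 0.0742 in the smaller set and 0.0932 in TGFβR-KO, again 1 gene of 99, against 0.454% of all genes.

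In TGFβR-CA 0 of the 99 genes were called higher, against 1.21% of all genes, and 1 was called lower, against 2.73%. That gene was *Slc35d1*, a nucleotide sugar transporter, at 0.0821 in TGFβR-CA against 0.128 and 0.157 in the larger and smaller TGFβR-WT sets, with 36 corrected UMIs in TGFβR-CA. In TGFβR-CA 18 genes lay above both TGFβR-WT sets, against 19.4% of all genes, and 38 below both, against 41.0%. No gene was called in opposite directions in the 2 mutant conditions, and both were set against the same TGFβR-WT cells.

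The makeup of the conditions by cluster differed greatly, and several genes called above also had levels that differed between clusters. The Tumorigenic and CTL clusters held 12.1% and 10.8% of TGFβR-KO cells, against 0.497% and 1.29% of TGFβR-WT cells and 0.182% and 0.273% of TGFβR-CA cells. The Migratory cluster held 27.9% of TGFβR-KO cells, 8.84% of TGFβR-WT cells and 4.74% of TGFβR-CA cells. The TR-TFH cluster held 17.4%, 45.7% and 50.6% in the same order. Cluster names are those of the deposited table, where TFH stands for T follicular helper cells, GC for germinal center, TR for tissue-resident and CTL for cytotoxic T lymphocytes. Clusters were formed from the same values, so cluster ratios are given as a description.

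In TGFβR-KO cells the leading genes of the Tumorigenic cluster were *Slc3a2*, *Slc7a1* and *Slc16a1*. The ratio to the other TGFβR-KO clusters was 3.41 for *Slc3a2*, with a level of 2.69 against 0.790. It was 2.93 for *Slc7a1*, which encodes the cationic amino acid transporter that takes up arginine and lysine, with 0.821 against 0.280. It was 2.18 for *Slc16a1*, which encodes the monocarboxylate transporter MCT1, with 0.269 against 0.123. In this cluster 6 of the 99 genes were at least 1.5 times higher than in the rest, against 6.42% of all genes, and 31 at least 1.5 times lower, against 26.0%. The other genes of the 6 were *Slc38a2* (3.89 against 1.88), *Slc2a3* (0.779 against 0.409) and the monocarboxylate transporter gene *Slc16a6* (0.602 against 0.320).

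Because these 3 genes lead the Tumorigenic cluster, the 300 bases around their RefSeq start (250 before it and 50 after) are shown for the GRCm38.p6 assembly, read 5′ to 3′ along the gene. Capitals mark the letters of the motifs searched on both strands, which were TGANTCA (AP-1), CAGAC (SMAD box) and TGATGNAA (the amino acid response element bound by ATF4). The windows are chr19:8713848-8714147 (minus strand) for *Slc3a2*, chr5:148399855-148400154 (minus strand) for the upstream start of *Slc7a1* and chr3:104638414-104638713 (plus strand) for *Slc16a1*.
Slc3a2: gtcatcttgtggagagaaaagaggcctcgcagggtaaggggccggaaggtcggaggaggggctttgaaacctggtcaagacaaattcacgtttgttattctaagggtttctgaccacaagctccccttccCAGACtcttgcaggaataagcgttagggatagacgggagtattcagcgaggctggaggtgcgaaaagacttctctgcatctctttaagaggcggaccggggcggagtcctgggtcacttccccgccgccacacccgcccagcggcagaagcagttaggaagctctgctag
Slc7a1: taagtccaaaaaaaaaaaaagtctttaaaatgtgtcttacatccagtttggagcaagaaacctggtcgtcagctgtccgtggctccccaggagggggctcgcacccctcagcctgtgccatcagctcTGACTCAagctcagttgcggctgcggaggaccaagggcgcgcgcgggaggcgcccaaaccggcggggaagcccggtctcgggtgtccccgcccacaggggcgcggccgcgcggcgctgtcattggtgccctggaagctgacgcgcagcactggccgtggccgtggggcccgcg
Slc16a1: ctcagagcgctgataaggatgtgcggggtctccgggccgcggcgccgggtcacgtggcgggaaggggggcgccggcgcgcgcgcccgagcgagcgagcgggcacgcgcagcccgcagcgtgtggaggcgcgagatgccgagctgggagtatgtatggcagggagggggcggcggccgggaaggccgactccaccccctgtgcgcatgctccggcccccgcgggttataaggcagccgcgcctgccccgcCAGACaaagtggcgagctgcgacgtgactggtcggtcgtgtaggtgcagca

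The *Slc3a2* and *Slc16a1* windows each held 1 CAGAC, the *Slc7a1* window held 1 TGANTCA, and none of the 3 held TGATGNAA. Over all 32851 promoter windows CAGAC was found in 49.6%, TGANTCA in 7.81% and TGATGNAA in 3.97%. Windows existed for 118 of the 153 solute carrier genes, with 153 windows in all because some genes have several starts, and these held CAGAC in 49.7%, TGANTCA in 5.88% and TGATGNAA in 1.31%. The GC box GGGCGG was in 73.2% of them and in 35.7% of all windows. A match says only that the letters are present.

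The Pre-tumorigenic cluster shared high levels of *Slc38a2* and *Slc3a2* with the Tumorigenic cluster, but not of *Slc7a1*, which was at 0.817 times the other TGFβR-KO clusters in Pre-tumorigenic cells. *Slc38a2* was at 4.34 there against 1.95 in the other TGFβR-KO clusters, 2.23 times, and *Slc3a2* at 1.83 against 0.958, 1.91 times. *Slc25a38*, the mitochondrial glycine carrier that serves heme synthesis, was at 0.264 against 0.127. In this cluster 5 of the 99 genes were at least 1.5 times higher than in the rest, against 5.02% of all genes, and 24 were at least 1.5 times lower, against 21.3%. The *Slc38a2* ratio of this cluster to the rest was 1.30 in pooled TGFβR-WT cells and 2.003 in TGFβR-CA cells. That of *Slc3a2* was 0.880 and 1.44, below the ratio in TGFβR-KO. The 2 TGFβR-WT sets were unlike here. In Pre-tumorigenic cells *Slc3a2* was at 1.21 in the larger set (11 corrected UMIs in 27 cells) and 0.495 in the smaller (10 in 52 cells).

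**Figure D3:**
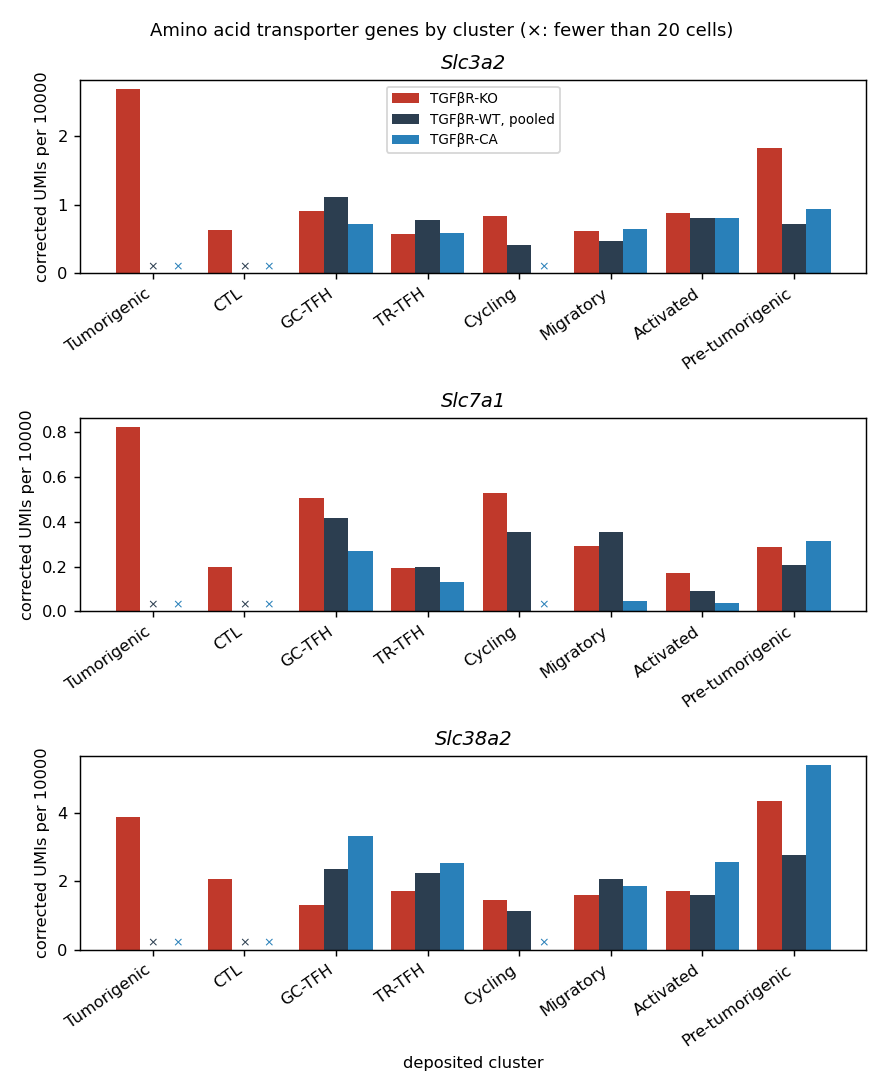
Levels of *Slc3a2*, *Slc7a1* and *Slc38a2* in corrected UMIs per 10000 in each deposited cluster, with bars for TGFβR-KO, pooled TGFβR-WT and TGFβR-CA cells and crosses where a group had fewer than 20 cells of the cluster. *Slc3a2* and *Slc7a1* are highest in the Tumorigenic cluster of TGFβR-KO, at 2.69 and 0.821, and *Slc38a2* is high in the Pre-tumorigenic cluster of TGFβR-CA (5.39) as well as of TGFβR-KO (4.34).

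Follicular helper clusters had a different set. In GC-TFH cells of TGFβR-KO, *Slc29a1* was at 0.999 against 0.349 in the other clusters (2.86 times), *Slc41a1*, a magnesium transporter, at 1.21 against 0.430 (2.81 times) and *Slc26a11* at 0.503 against 0.206 (2.44 times). In TGFβR-WT the same ratios were 1.62, 1.77 and 1.25, and in TGFβR-CA they were 2.03, 1.66 and 0.757, so only the first 2 kept a ratio above 1.5 in all 3 conditions. In this cluster 19 of the 99 genes were at least 1.5 times higher than in the rest, against 15.8% of all genes, and 14 lower, against 10.2%. In TR-TFH cells the leading genes were *Slc45a4* (0.799 against 0.202, 3.95 times), *Slc26a11* (0.430 against 0.199, 2.16 times) and *Slc9a9* (1.33 against 0.641, 2.07 times). All 3 were also higher in the TR-TFH cluster of the other conditions, by 3.32, 1.57 and 2.66 times for TGFβR-WT and by 1.97, 1.87 and 1.81 times for TGFβR-CA. Of the 99 genes 7 were at least 1.5 times higher in TR-TFH, against 5.15%, and 16 lower, against 15.1%. *Slc26a11*, *Slc29a1* and *Slc45a4* were among the genes called lower in TGFβR-KO as a whole. Within TR-TFH, *Slc45a4* was at 0.799 in TGFβR-KO, 1.53 and 0.823 in the larger and smaller TGFβR-WT sets and 0.842 in TGFβR-CA. Within GC-TFH, *Slc26a11* was at 0.503, 0.634, 0.662 and 0.457 in the same order. Otherwise these genes were lowest in TGFβR-KO in both clusters. The part of cluster makeup in those calls was not tested beyond the values within clusters given here and further on.

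The Cycling cluster held the largest number of genes above the rest, 25 of 99 against 23.0% of all genes, with 19 below, against 22.2%, from only 77 cells. *Slc29a1* was at 1.24 there against 0.395 (3.14 times) and *Slc25a5* at 7.34 against 3.72 (1.97 times), and these 2 ratios were 1.57 and 1.93 in TGFβR-WT. *Slc38a10* was at 0.651 against 0.282 in TGFβR-KO but at 0.117 against 0.420 in TGFβR-WT. This contrast is thinly covered, with 21 corrected UMIs in the TGFβR-KO cluster and only 45 TGFβR-WT cells. TGFβR-CA had 9 cells of this cluster, too few to compare.

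The Migratory cluster was led by 2 mitochondrial carriers. *Slc25a33*, a pyrimidine nucleotide carrier, was at 0.238 against 0.0866 in the other clusters (2.75 times), *Slc25a24* at 1.38 against 0.671 (2.06 times), and *Slc35a5*, of the nucleotide sugar transporter family, at 0.235 against 0.132 (1.78 times). The *Slc25a24* ratio was 2.91 for TGFβR-WT and 1.90 for TGFβR-CA, and this gene was called higher in TGFβR-KO as a whole, where the share of the Migratory cluster was also higher. The part of that share in the call was not tested beyond the weighting by cluster given further on. *Slc35a5* had ratios of 0.893 and 1.02 in those conditions. Of the 99 genes 7 were at least 1.5 times higher in this cluster, against 3.48% of all genes, and 10 lower, against 8.05%.

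In the CTL cluster the leading genes were the zinc transporter *Slc30a5* (0.306 against 0.164, 1.87 times), the anion exchanger *Slc4a2* (0.281 against 0.160, 1.76 times) and the concentrative nucleoside transporter *Slc28a2* (0.653 against 0.372, 1.76 times). Of the 99 genes 7 were higher, against 5.59%, and 15 lower, against 11.3%. In the Activated cluster the leading genes included *Slc22a15*, an organic ion transporter (0.286 against 0.122, 2.35 times), and *Slc25a45*, of the mitochondrial carrier family (0.343 against 0.197, 1.74 times), with 14 genes higher, against 8.84%, and 7 lower, against 6.11%. The *Slc22a15* ratio was 1.54 for TGFβR-WT and 2.24 for TGFβR-CA, while that of *Slc25a45* was below 1 in TGFβR-WT. The levels of these leading CTL and Activated genes rest on 34 to 79 corrected UMIs in the cluster.

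**Figure D4:**
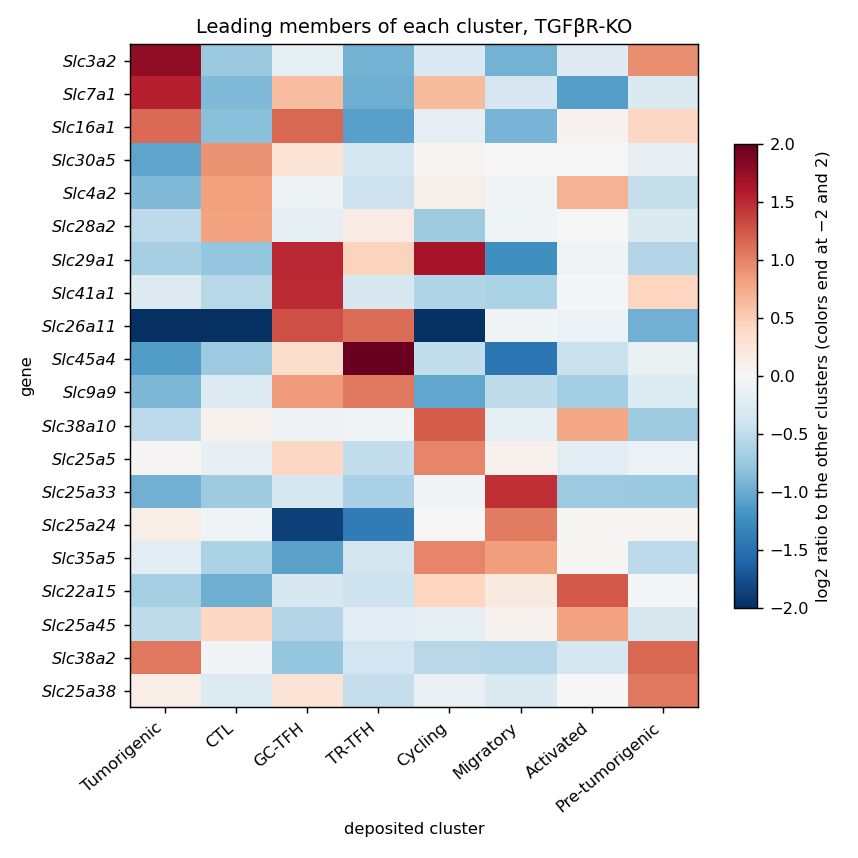
Log2 ratio of the level in each deposited cluster to that in the other clusters, in TGFβR-KO cells only, for leading genes of each cluster, up to 3 per cluster (20 genes, since *Slc3a2*, *Slc29a1* and *Slc26a11* lead more than 1), with red above and blue below the other clusters. *Slc3a2* and *Slc7a1* are darkest red in the Tumorigenic cluster, *Slc45a4* in the TR-TFH cluster, and *Slc29a1* in both the GC-TFH and Cycling clusters.

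*Slc2a3* was not bound to 1 cluster. In TGFβR-KO it was at 0.779 in the Tumorigenic cluster, 0.670 in CTL, 0.548 in Activated, 0.527 in Cycling, 0.471 in Pre-tumorigenic, 0.366 in Migratory, 0.309 in GC-TFH and 0.249 in TR-TFH. The lowest of these, in TR-TFH, rested on 48 corrected UMIs in 519 cells, where the larger TGFβR-WT set had 6 in 327 cells (0.0535 per 10000), the smaller set 5 in 133 (0.0935) and TGFβR-CA 11 in 556 (0.0503). In GC-TFH there were 38 in 318 TGFβR-KO cells, 1 in 141 and 1 in 58 cells of the TGFβR-WT sets, and 9 in 263 TGFβR-CA cells. TGFβR-KO was thus high within both follicular helper clusters, which the other conditions hold in large numbers.

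In the other clusters the contrast was smaller or less well covered. In the Activated cluster *Slc2a3* was at 0.548 in TGFβR-KO, 0.311 and 0.0814 in the TGFβR-WT sets and 0.225 in TGFβR-CA. In the Pre-tumorigenic cluster it was at 0.471 in TGFβR-KO, had 0 corrected UMIs in 27 cells of the larger and 3 in 52 cells of the smaller TGFβR-WT set, and was at 0.125 in TGFβR-CA. In the Migratory cluster TGFβR-KO was at 0.366 and the larger TGFβR-WT set at 0.296, which did not differ by 1.5 times. TGFβR-KO was above the pooled TGFβR-WT cells in all 6 clusters in which at least 20 cells of each could be compared. The gene was called from the same cells, so this count is a description. With equal weight given to the 4 clusters that each set holds at least 20 cells of (GC-TFH, TR-TFH, Activated and Pre-tumorigenic), TGFβR-KO was 4.10 times the nearer TGFβR-WT set, and with each of these clusters left out in turn, an alternative chosen after the values were seen, the ratio ran from 2.88 to 4.01. The Migratory cluster, with the most TGFβR-KO cells, does not enter this mean, and TGFβR-KO was 1.12 times the pooled TGFβR-WT cells there.

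**Figure D5:**
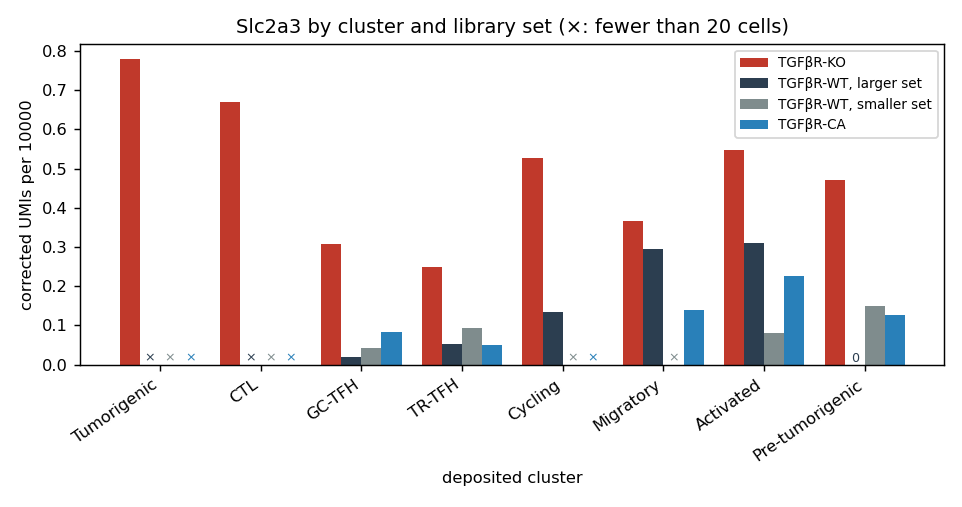
Level of *Slc2a3* in corrected UMIs per 10000 in each deposited cluster, with 1 bar for each of the 4 sets of cells, crosses where a set had fewer than 20 cells and a 0 where no UMI was found. The TGFβR-KO bar is the tallest wherever another set has a bar, from 0.249 in TR-TFH to 0.548 in Activated. It is the only bar in Tumorigenic (0.779) and CTL. The larger TGFβR-WT set comes nearest in the Migratory cluster at 0.296.

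The same weighting parted the other genes. *Slc43a2* was at 0.566 times, *Slc29a3* at 0.637 times and *Slc7a6os* at 0.436 times the nearer TGFβR-WT set with equal cluster weight, and all 3 stayed called. With each of the 4 clusters left out in turn, *Slc43a2* ran from 0.535 to 0.624 and *Slc7a6os* from 0.366 to 0.665, and both stayed called. *Slc29a3* did not, since without the Pre-tumorigenic cluster, where it had 6 corrected UMIs in TGFβR-KO and 6 in the larger TGFβR-WT set, it was at 0.890 times the nearer set. With all 4 clusters, *Slc26a11* was at 0.671 times, just outside the call, *Slc29a1* at 0.763, *Slc45a4* at 0.790 and *Slc39a13* at 0.863. *Slc25a24* was at 1.06 times the nearer set and *Slc11a2* between the sets. *Slc35d1* in TGFβR-CA was at 0.989. *Slc26a11*, *Slc29a1*, *Slc29a3*, *Slc39a13* and *Slc43a2* were below the pooled TGFβR-WT cells in all 6 clusters compared. *Slc11a2*, *Slc36a1* and *Slc7a6os* were below them in 5 of 6, and *Slc45a4* in 4 of 6. Some of these ratios were near 1, at 0.935 for *Slc29a1* in Pre-tumorigenic and 0.928 for *Slc39a13* in Migratory cells. These genes were called from the same cells, and the share of all genes was not computed, so the counts are a description.

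Within single clusters, calls against both TGFβR-WT sets were scattered over genes. In TR-TFH cells, the best covered cluster, 2 of the 99 genes were higher in TGFβR-KO, against 1.70% of all genes, and 13 lower, against 8.09%. In GC-TFH cells the counts were 2 (2.92%) and 11 (5.97%), in Activated cells 7 (3.31%) and 12 (8.95%), and in Pre-tumorigenic cells 7 (4.17%) and 15 (11.8%). *Slc2a3* was the 1 gene called higher in 3 of the 4 clusters, and no gene was called higher in 2. *Slc16a6*, which was not called over all cells, was the 1 gene called lower in 3 of 4 (TR-TFH, Activated and Pre-tumorigenic), and 9 genes were called lower in 2, among them *Slc43a2*, *Slc29a1* and *Slc7a6os* in TR-TFH and Activated cells and *Slc26a11* in TR-TFH and Pre-tumorigenic cells. In TGFβR-CA 0 genes were higher in TR-TFH cells (1.75% of all genes) and 3 lower (4.31%), with 3 and 11 in GC-TFH (3.11% and 5.27%), 10 and 10 in Activated (4.09% and 8.20%) and 9 and 15 in Pre-tumorigenic cells (5.26% and 12.3%). No gene was called in the same direction in more than 2 of the 4 clusters in TGFβR-CA. *Slc2a3* was called higher in TGFβR-CA too, in GC-TFH cells, at 0.0840 against 0.0198 and 0.0414. That call and the TGFβR-KO call in GC-TFH rest on 1 corrected UMI in each TGFβR-WT set. The smaller TGFβR-WT set had 29 Activated and 52 Pre-tumorigenic cells, so that these 2 clusters rest on few UMIs per gene.

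Partner genes of the transporters were listed separately. Of 17 genes of glycolysis and lactate export compared, 1 was called higher in TGFβR-KO, against 2.76% of all genes, and 0 lower, against 5.45%. The 1 gene was *Hk2*, which encodes a hexokinase, the enzyme that phosphorylates glucose after uptake. It was at 0.684 in TGFβR-KO, 0.251 and 0.140 in the larger and smaller TGFβR-WT sets and 0.146 in TGFβR-CA. Within TGFβR-KO it was at 2.18 in the Tumorigenic and 1.67 in the Pre-tumorigenic cluster, but at 0.0778 in TR-TFH. The part of cluster makeup in this call was not tested. The 3 highest genes of this list, *Gapdh*, *Emb* and *Aldoa*, were not called, and neither was *Ldha*, which encodes lactate dehydrogenase A. In TGFβR-CA 1 gene of the list was called higher, against 1.21% of all genes, and 0 lower, against 2.73%. The 1 gene was *Hif1a*, a transcription factor of the hypoxia response, at 1.33 against 0.742 and 0.536. Of 15 genes of amino acid sensing and the response to its lack, 0 were called higher in TGFβR-KO (2.76% of all genes) and 1 lower (5.45%), the kinase gene *Mtor*, at 0.0950 against 0.176 and 0.214, and 0 were called in TGFβR-CA (1.21% higher and 2.73% lower among all genes), with *Lamtor2*, *Lamtor4* and *Ddit4* as the highest of the list. Of 6 genes of zinc and iron handling compared, led by the ferritin genes *Fth1* and *Ftl1* and by *Ireb2*, 0 were called in either condition, against the same shares. Lists this short allow no reading against the share of all genes.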

How the data were processed

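RNA of single sorted T cells was captured in droplets and sequenced in 2 batches, and the authors counted UMIs with Cell Ranger 3.1.0 (per the labels) against mm10, filtered cells, applied SCTransform, integrated and clustered the cells in Seurat, and took out epithelial and γδ T cells. Each of the deposited values is a natural log, of 1 plus a UMI number corrected with SCTransform. Undoing the log gave whole numbers, within 1e-06, for each of the 7880276 values above 0. Corrected UMIs are no raw counts, which barred count models, and the original depth of each cell is unknown. How the authors treated doublets is not given in the sources used here, and no doublet caller was run on the corrected values. Column names of cells gave the condition and suffix, 15 TGFβR-KO cells shared a barcode with another set (14 with the larger TGFβR-WT set and 1 with TGFβR-CA), and 0 columns of cells were left unused.

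Levels, ratios and exact Clopper-Pearson intervals were computed in Python 3.11.15 with numpy 2.4.6, pandas 2.3.3 and scipy 1.17.1. Genes at 0 in a TGFβR-WT set were not called. The steps were tested on simulated data. Genes named are the called members, the 10 highest members, the 3 leading members of each cluster, members parting the libraries, a fixed list of well-known transporters, and partner genes called or highest in their list. *Slc16a6*, *Slc26a2*, *Slc30a7*, *Ldha* and the markers *Krt18*, *Reg3b*, *Tff3*, *Ighm*, *Jchain* and *Ms4a1* were named after their values were seen. Not every gene this rule names is reported here. Members and lists were chosen with earlier results of these data known. Gene coordinates come from GENCODE on GRCm38, matched by symbol for all 153 members, and promoter windows from RefSeq.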

Additional observations from a re-analysis of the deposited data

How the results depend on the processing

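No paired analysis was possible because TGFβR-WT cells could not be tied to their 2 samples and each mutant condition has 1 sample. No called gene changed direction against all the TGFβR-WT cells used in an alternative. With equal cluster weight *Slc11a2* lay between the TGFβR-WT sets in TGFβR-KO. So did *Slc39a13* with the GC-TFH cluster also left out, and *Slc25a24* with the Pre-tumorigenic cluster left out. *Slc14a1*, not called, was at 0.508 times the larger and 2.21 times the smaller TGFβR-WT set in TGFβR-CA. Counts of solute carrier genes are followed by the share of all genes in parentheses. Without the larger set, 14 (9.80%) were higher and 29 (19.1%) lower in TGFβR-KO, and 10 (6.78%) higher and 13 (12.2%) lower in TGFβR-CA. Without the smaller set, 14 (9.51%) were lower in TGFβR-KO, and 3 (3.78%) higher and 8 (8.99%) lower in TGFβR-CA. Against pooled TGFβR-WT cells, 1 (2.43%) was higher and 5 (7.12%) lower in TGFβR-CA. With no UMI minimum, 18 of 153 (7.41%) were lower in TGFβR-KO, and 4 (2.26%) higher and 5 (4.09%) lower in TGFβR-CA. With a minimum of 500, 4 of 43 (4.62%) were lower in TGFβR-KO and 0 (2.10%) in TGFβR-CA. At a fold of 2, 1 (1.26%) was higher (*Slc2a3*) and 2 (1.60%) lower (*Slc26a11* and *Slc29a1*) in TGFβR-KO, and 0 (0.574%) lower in TGFβR-CA. With equal cluster weight, 5 (4.43%) were lower in TGFβR-KO and 4 (3.51%) in TGFβR-CA. With mitochondrial, ribosomal and rRNA-linked genes out of the denominator, 1 (1.68%) was higher and 0 (1.68%) lower in TGFβR-CA, 11 (8.26%) led in TR-TFH and 9 (6.28%) in Activated. With the mean of log values, 3 (3.31%) were lower in TGFβR-CA. By share of cells, 3 (3.71%) led in Pre-tumorigenic. The cause of these shifts was not tested.

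Of the called genes, *Slc2a3*, *Slc43a2*, *Slc29a3* and *Slc7a6os* kept their call under each alternative at the 1.5 fold in which they were compared, except *Slc29a3* with equal cluster weight and the Pre-tumorigenic cluster left out, a setting chosen after the data were seen. The other called genes lost theirs with equal cluster weight. *Slc36a1* lost it also with the other denominator and without shared barcodes, and *Slc39a13* and *Slc35d1* with the other denominator.

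Within clusters without the smaller set, TGFβR-KO had 13 higher (8.68%) and 21 lower (14.4%) in GC-TFH, 22 lower (14.6%) in TR-TFH, 26 (11.4%) and 22 (19.7%) in Activated and 16 (15.4%) and 28 (27.8%) in Pre-tumorigenic. TGFβR-CA had 18 (10.7%) and 21 (15%), 5 (7.12%) and 13 (11.6%), 26 (14.0%) and 21 (20.2%), and 16 (18.1%) and 30 (27.0%) in the same order. A minimum of 50 cells left no value for Activated and Pre-tumorigenic.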
